A study of Mus musculus with 15 samples.

Results

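The airway genes described here are 10 genes that mark 2 cell types of the bronchiolar epithelium. The 6 genes of club and other secretory cells are Scgb1a1, Scgb3a1, Scgb3a2, Cyp2f2, Cldn10 and Muc5b, and the 4 genes of ciliated cells are Foxj1, Tppp3, Dynlrb2 and Rsph1. They were taken by gene name, and each matched 1 row among the 55359 genes of the expression matrix. RNA was sequenced in 15 mouse samples, namely 3 Lung samples, 3 of each line in culture (57SCLC_cell and 46LCNEC_cell) and 3 of each line grown as a tumor (57SCLC_allo and 46LCNEC_allo). All samples come from the QKO strain or its littermates, which carry floxed Trp53 and Rb1 alleles and a null Rbl1 gene, among other alleles. By PCR of genomic DNA, the paper found Rb1, Rbl1 and Trp53 rearranged or deleted in all its cell lines. It states that tumors grown from the lines kept the mutant alleles. The 46LCNEC line was cultured from 1 tumor that arose after an adenovirus with Cre under the CMV promoter was given through the trachea, and it grows as an attached layer. The 57SCLC line came from 1 tumor induced by Cre under the keratin 5 promoter, which is active in basal airway cells, and it grows as floating clumps. The _cell samples were separate flasks or dishes of these lines, so each line stands for 1 primary tumor, and p-values measure only the spread between these samples. The _allo samples were tumors grown under the skin of immunocompetent QKO mice and hold host cells. Lung was normal lung of littermates, with every cell type of the organ. Animal ages are not given in the sources used here.

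Club cells are secretory cells of the small airways. They release secretoglobins, metabolise foreign compounds with cytochrome P450 enzymes, and serve as progenitors of other airway cells. Ciliated cells are made when the geminin-like regulators Gmnc and Mcidas start the multiplication of centrioles and, with Foxj1 and RFX factors, switch on the genes of the axoneme, the microtubule core of a motile cilium.

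Values are normalized counts, that is reads divided by a size factor of the sample, and a library with 3 reads or fewer of a gene was taken as not detected. The samples held between 9480244 and 44876572 counted reads, and 3 reads corresponded to between 1.56 and 7.18 normalized counts. The labelled tissues were compared with defining markers. The summed level of the 4 epithelium markers Epcam, Cdh1, Krt8 and Krt18 was 13602 to 17373 in Lung, 41356 to 46741 over both 57SCLC groups and 136 to 246 over both 46LCNEC groups. The summed level of the 6 neuroendocrine markers was 23476 to 59550 over the 57SCLC samples, 185 to 203 in Lung and 17.9 to 55.3 over the 46LCNEC samples. Both marker sets were thus lower in every sample labelled LCNEC than in every Lung sample. By staining, the paper reports chromogranin A in LCNEC subcutaneous tumors and NCAM in LCNEC cells. Staining shows protein, whereas RNA was measured here. Rb1 and Trp53 were read in every tumor and cell sample, at gene level and therefore with exons outside the deleted part included, which checks no deletion. In 57SCLC_cell, flask C gave 777 normalized counts of Rb1, against 229 and 236 in flasks A and B.

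Every one of the 10 genes had its highest group mean in Lung. Tests were made with limma over all genes that reached 10 normalized counts in 3 or more of the 6 samples compared, and a gene was called at a change of 2-fold or more with a p of 0.01 or less after Benjamini-Hochberg adjustment. All 10 genes passed the filter in each comparison with Lung, and they passed it through the Lung samples, where they are high. In 46LCNEC_allo against Lung 9 of 10 were called lower, where 22.1% of all genes tested were called lower. In 57SCLC_allo against Lung 9 of 10 were called lower, beside a background of 26.9%. In 46LCNEC_cell 9 of 10 were lower than in Lung, with 35% of all genes tested called lower, and in 57SCLC_cell 8 of 10 were lower, with a background of 32.7%. None was called higher than Lung, against 13.4% of all genes tested in 46LCNEC_allo, 18.9% in 57SCLC_allo, 20.6% in 46LCNEC_cell and 21.1% in 57SCLC_cell. Every sample lay below every Lung sample for 10 of 10 genes in 46LCNEC_allo (39.6% of all genes tested) and 46LCNEC_cell (48.4%), and for 9 of 10 in 57SCLC_allo (42.2%) and 57SCLC_cell (45.3%), the exception being Muc5b. The 4 comparisons use the same 3 Lung samples and are therefore not independent of each other. In such bulk samples, fewer cells of a type and less RNA per cell cannot be told apart.

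**Figure D1:**
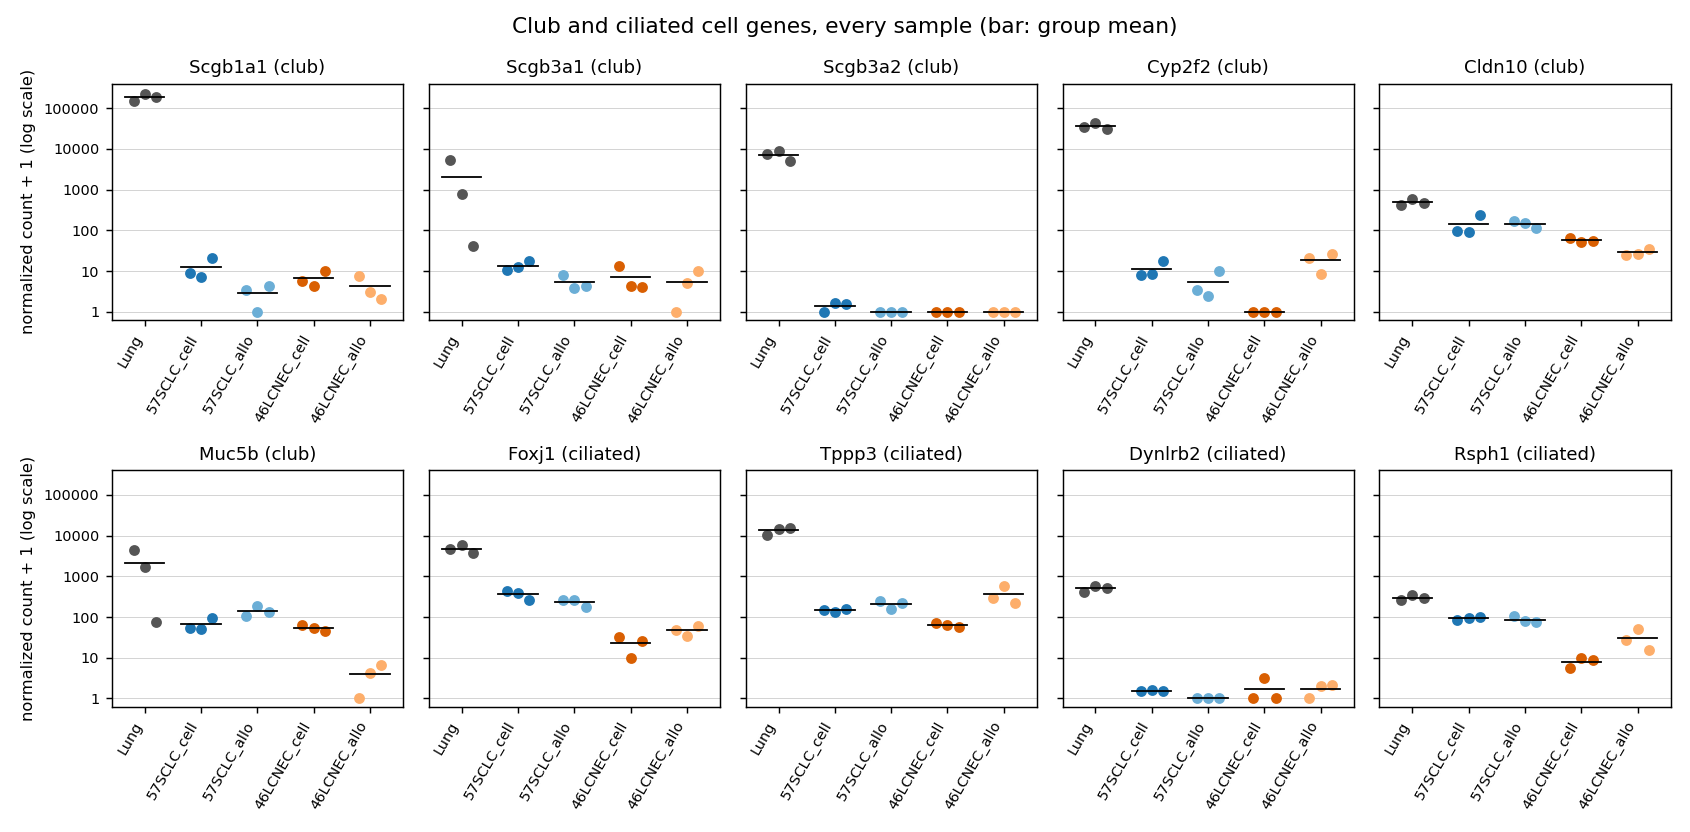
Normalized count + 1 on a log scale (y) of each of the 10 genes in every sample, by group (x); each point is 1 sample and each bar the mean of 3 samples. Scgb1a1 lies at or above 151023 in all Lung samples and at or below 19.8 in all tumor and cell samples, whereas Muc5b and Scgb3a1 spread widely within Lung and Muc5b overlaps between Lung and both 57SCLC groups.

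Scgb1a1, the most abundant of these transcripts in Lung, encodes the major secreted protein of club cells, CC10, and lies on chromosome 19 at 9061000 to 9065326 (GRCm39, minus strand). Its normalized counts were 151023, 219541 and 183536 in Lung samples CT3, CT4 and CT5. They were 8.18, 6.03 and 19.8 in 57SCLC_cell and 2.39, 0 and 3.40 in 57SCLC_allo. The 46LCNEC_cell values were 4.69, 3.31 and 9.23, and the 46LCNEC_allo values 6.62, 2.11 and 1.11. Detection above 3 reads was seen in all 3 flasks of 57SCLC_cell (15, 10 and 38 reads) and in none of the 57SCLC_allo tumors. The cut is unlike in these groups, as 3 reads were 1.56 to 1.81 normalized counts in the flasks and 3.40 to 7.18 in the tumors. The highest of the 4 group means, that of 57SCLC_cell, was 0.00614% of the Lung mean. In 57SCLC_allo only 4 reads were counted in all, which puts Lung 92599 times higher, with an exact Poisson 95% interval of 36166 to 339853 that covers the counting error of those 4 reads only. In each of the 4 comparisons Scgb1a1 was called lower (adjusted p from 4.88e-10 to 4.79e-06). By staining for the protein, the paper found the subcutaneous tumors grown from its lines negative for CC10.

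Scgb3a2, a secretoglobin of the same cells (chromosome 18, 43897354 to 43900474), gave 7518, 8830 and 4890 normalized counts in Lung. It had 0 reads in all 3 samples of 46LCNEC_cell, 46LCNEC_allo and 57SCLC_allo, and 2 reads in all of 57SCLC_cell. Against a floor of 3 reads per library, Lung was at least 2138-fold higher than 46LCNEC_cell, at least 1782-fold higher than 46LCNEC_allo and at least 986-fold higher than 57SCLC_allo. All 3 groups were at 0 reads, and the bounds differ with the depth of the libraries. Per kilobase of exon, Lung held 384792 normalized counts of Scgb1a1 and 7954 of Scgb3a2.

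Cyp2f2 encodes a club cell cytochrome P450 that activates naphthalene (chromosome 7, 26819322 to 26833090). Lung gave 34572, 42839 and 30936 normalized counts. The 46LCNEC_cell samples had 0 reads in all 3 dishes, so Lung was at least 10908-fold higher, while the 46LCNEC_allo tumors gave 19.9, 7.37 and 25.4. The 57SCLC_cell flasks gave 7.09, 7.24 and 16.2, and the 57SCLC_allo tumors 2.39, 1.42 and 9.08. Every 46LCNEC tumor was thus above every 46LCNEC dish, at 0.0486% of the Lung mean, whereas the 57SCLC groups overlapped. The change from culture to tumor differed between the lines by -5.32 on the log2 scale (57SCLC minus 46LCNEC, SE 0.83, adjusted p = 0.000464). This size depends on the pseudocount, as 1 of the 4 groups had no read, and the gene missed the filter of the comparison of 46LCNEC_allo with 46LCNEC_cell. Cyp2f2 shares 8.23% of its exon length with the opposite-strand gene Gm15883, and the strand setting of the counting is not given in the sources used here.

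Promoters were read because club cell genes are classical targets of Nkx2-1, which binds a CAAGTG core, and axoneme genes are targets of RFX factors, whose X-box begins with GTTGCC. The RefSeq promoter table (GRCm38.p6) held 5 promoters of 4 of the 10 genes, Cyp2f2, Scgb3a1, Cldn10 and Dynlrb2. Scgb1a1, Scgb3a2, Muc5b, Foxj1, Tppp3 and Rsph1 are not shown. The 250 bases before each start were searched on both strands for both of these cores and for the forkhead letters GTAAACA, with starts as the table has them. CAAGTG was found before each start of Cyp2f2, Scgb3a1 and Cldn10, where 11.6% of all 32851 promoters of the table hold it, and GTTGCC before Dynlrb2, where 10.4% hold it. GTAAACA (3.17% of promoters) was in none of them. Capitals below mark the match, each run is 5′ to 3′ on the plus strand, the strand of all 4 genes, and positions are those of the exact match in GRCm39. For Cyp2f2 the stretch before its first annotated exon is printed, and for the others the 30 bases around the match.
Cyp2f2, chr7:26819130-26819321: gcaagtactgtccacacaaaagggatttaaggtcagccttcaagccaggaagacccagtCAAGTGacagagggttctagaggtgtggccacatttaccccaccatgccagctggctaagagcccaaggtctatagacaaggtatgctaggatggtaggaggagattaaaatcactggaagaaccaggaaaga
Scgb3a1, chr11:49554236-49554265: agaaaggcctagCACTTGagttcaggagac
Cldn10, upstream start, chr14:119025034-119025063: gattgatagccaCACTTGtgaacacagata
Cldn10, downstream start, chr14:119092275-119092304: cgccagtgccctCAAGTGcccagtgggcgg
Dynlrb2, chr8:117231691-117231720: acttcctgcctgGTTGCCtagcaacggggg

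CACTTG is CAAGTG read on the other strand. Both letter sets were found once in each promoter that holds them. A match describes the letters only.

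Nkx2-1, the lung lineage factor, gave 12946, 14051 and 16406 normalized counts in Lung and 29464 to 34869 in 57SCLC_cell, where it was called higher (log2 fold change 1.17, SE 0.12, adjusted p = 4.78e-05), a call lost against a 2-fold null (treat, adjusted p = 0.206) and with all 15 samples in 1 model (adjusted p = 0.346). It gave 24223, 28338 and 26185 in 57SCLC_allo, above every Lung sample but not called (log2 fold change 0.86). In 46LCNEC_cell it was 2244 to 2883, called lower but not with all 15 samples in 1 model (adjusted p = 0.0496), and in the 3 46LCNEC_allo tumors 5.30, 165 and 761, where the call (adjusted p = 0.00738) was lost in edgeR (0.0105) and without any 1 Lung sample (0.0288 to 0.0295). Of the 5 airway factors listed (Nkx2-1, Foxa1, Foxa2, Grhl2 and Sox2), Sox2 was listed at 0 in all 15 samples, Lung included. Sox2 shares 59.9% of its exon length with the opposite-strand gene Gm64654, and the alveolar type 1 marker Cav1 was also at 0 in every sample. These 0 values are therefore not read as absence, and a loss of reads in the counting was not tested. The other 4 factors were all called higher in 57SCLC_cell than in Lung. There Foxa2, like Nkx2-1, was not called with all 15 samples in 1 model (adjusted p = 0.0134). The shares of all genes tested called higher were 21.1% in 57SCLC_cell and 18.9% in 57SCLC_allo. In 57SCLC_allo 2 of the 4 were called higher, Foxa2, lost with all 15 samples in 1 model (0.0546), and Grhl2, lost against a 2-fold null (0.0702), while Foxa1, just short of 2-fold, was called by edgeR, DESeq2 and both other scalings. In 46LCNEC_cell 3 were called lower (35% of all genes tested) and in 46LCNEC_allo all 4 (22.1%). Of these, Foxa1 was lost against a 2-fold null in both groups (0.0266 and 0.0595) and Foxa2 in 46LCNEC_allo without any 1 Lung sample (0.013 to 0.0135) or without tumor 312 (0.0112). The 57SCLC samples were all above Lung in Nkx2-1, Foxa1 and Foxa2. They had at most 19.8 normalized counts of Scgb1a1, Scgb3a1, Scgb3a2 and Cyp2f2, but 90.5 to 241 of Cldn10 and 48.9 to 183 of Muc5b. Whether these factors bear on the club and secretory genes was not tested.

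Muc5b and Scgb3a1, the mucin and the secretoglobin of the larger airways, differed from the other genes in how they spread within Lung. Scgb3a1 (chromosome 11, 49549630 to 49555945) gave 5427, 784 and 39.8 normalized counts in CT3, CT4 and CT5. Muc5b (chromosome 7, 141392807 to 141426821) gave 4488, 1675 and 76.1. The samples stood in the same order for both genes, 133 and 58.2 times apart on the scale of normalized count + 1, whereas the other 8 genes differed 1.30 to 1.81 times. A spread at least as large as that of Scgb3a1 was seen in 0.117% of the 17935 genes with a Lung mean of at least 10, and one as large as that of Muc5b in 0.223%.

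The genes listed beside them showed the same order. Bpifa1, a secreted defence protein of the upper airways, gave 2267, 26.9 and 3.51 normalized counts in CT3, CT4 and CT5. Bpifb1, of the same family, gave 1242, 153 and 15.2. The antimicrobial lectin Reg3g gave 278, 8.98 and 0, the trefoil factor Tff2 gave 187, 16.95 and 7.02, and the basal cell keratin Krt5 gave 101, 1.99 and 0. In all, 163 genes (0.909%) were highest in CT3, lowest in CT5 and at least 4 times apart, out of 356 (1.98%) at least 4 times apart in any order. These genes were singled out after their values were seen, and what moved them together was not tested.

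**Figure D2:**
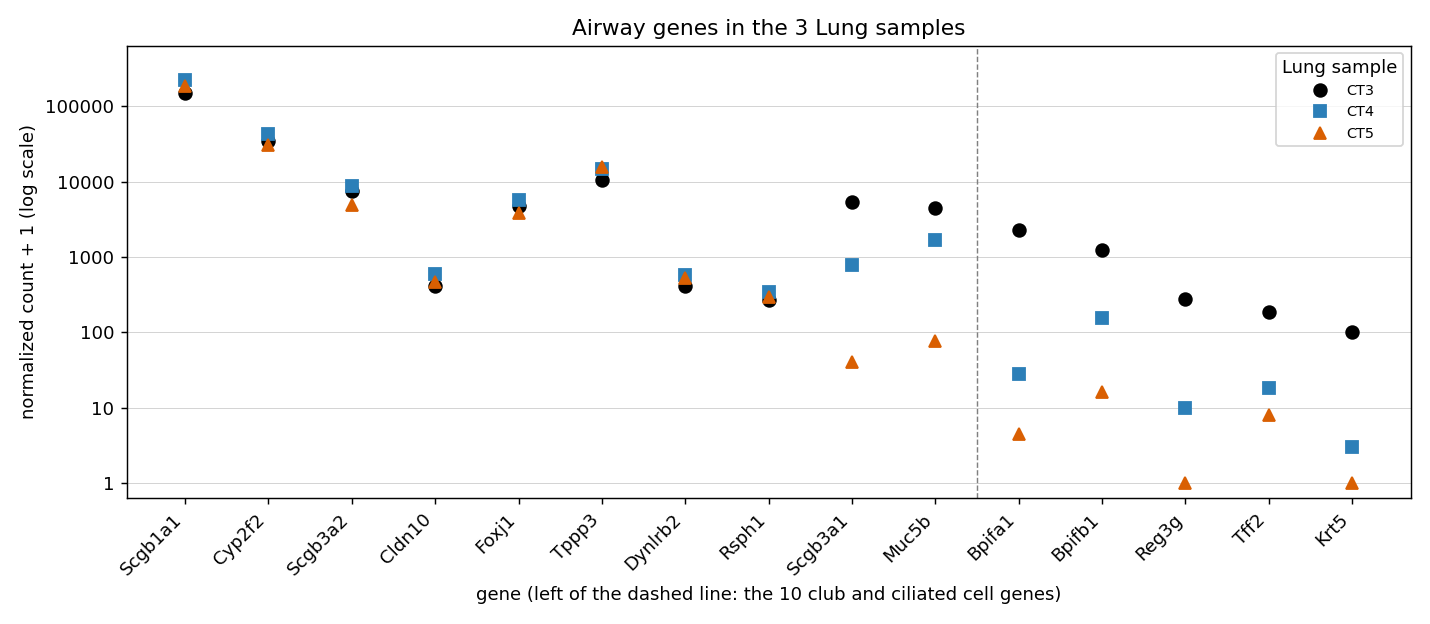
Normalized count + 1 on a log scale (y) of the 10 club and ciliated cell genes, left of the dashed line, and 5 other airway genes, right of it, in Lung samples CT3, CT4 and CT5 (1 point each). For Scgb3a1, Muc5b and the 5 genes on the right CT3 is highest and CT5 lowest, while the other 8 genes differ at most 1.81 times between the samples.

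Several calls of both genes against Lung moved with single samples, CT5 most often. Scgb3a1 stood at 9.82, 11.5 and 16.2 in 57SCLC_cell, 7.18, 2.83 and 3.40 in 57SCLC_allo, 12.2, 3.31 and 3.08 in 46LCNEC_cell and 0, 4.21 and 8.85 in 46LCNEC_allo. All 12 values were below the lowest Lung sample, yet the gene was not called in 57SCLC_cell (adjusted p = 0.0124) or 46LCNEC_allo (adjusted p = 0.0121). Without CT5 those adjusted p were 0.000318 and 0.00307. With all samples kept, DESeq2 called it in both (adjusted p = 9.83e-07 and 8.74e-06) and edgeR in 57SCLC_cell (0.0038). In 57SCLC_allo, where it was called (adjusted p = 0.00449), leaving out CT3 gave 0.0103, leaving out CT4 gave 0.0208, and leaving out any 1 tumor gave 0.0113 to 0.0167. In 46LCNEC_cell it was called (adjusted p = 0.00247), and this was lost without CT4 (0.0177), dish B (0.0104) or dish C (0.0122).

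Muc5b was the 1 gene whose groups overlapped with Lung. It gave 53.5, 48.9 and 93.8 normalized counts in 57SCLC_cell and 108, 183 and 130 in 57SCLC_allo, above or around the 76.1 of CT5. It was called in neither (adjusted p = 0.0327 and 0.106), and without CT5 the adjusted p were 0.000129 and 0.000167, with log2 fold changes of -5.43 and -4.31. With all samples kept, edgeR (adjusted p = 0.00551) and DESeq2 (0.000131) called it in 57SCLC_cell, and DESeq2 (0.00349) in 57SCLC_allo. The 46LCNEC_cell dishes gave 62.9, 54.1 and 43.8 (adjusted p = 0.0133, and 1.05e-05 without CT5), and edgeR (0.000795) and DESeq2 (5.01e-05) called Muc5b there. The 46LCNEC_allo tumors gave 0, 3.16 and 5.53, that is 8 reads in all, and Muc5b was called lower there (log2 fold change -8.12, SE 1.54, adjusted p = 0.00393; 0.0153 without CT3, 0.0203 without CT4, 0.0155 without tumor 312 and 0.0104 without tumor 319).

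Cldn10, a claudin of club cell junctions (chromosome 14, 119025320 to 119112901), kept the largest share of its Lung level among the 6 club and secretory genes taken by name in every tumor and cell group. It gave 406, 595 and 467 normalized counts in Lung. The 57SCLC_cell flasks gave 96.6, 90.5 and 241, flask C standing apart, and the 57SCLC_allo tumors 170, 147 and 111. The 46LCNEC_cell dishes gave 61.9, 51.9 and 54.6 and the 46LCNEC_allo tumors 23.8, 25.3 and 34.3. The group means were 29.2% of Lung in both 57SCLC groups (19.1% in 57SCLC_cell without flask C, an alternative chosen after seeing the data), 11.5% in 46LCNEC_cell and 5.68% in 46LCNEC_allo. All 4 were called lower than Lung, by -1.91 (SE 0.37) in 57SCLC_cell, -1.77 (SE 0.21) in 57SCLC_allo, -3.09 (SE 0.18) in 46LCNEC_cell and -4.09 (SE 0.26) in 46LCNEC_allo on the log2 scale. The call in 57SCLC_cell was lost without CT4 (adjusted p = 0.0137), without CT5 (0.0104) and against a 2-fold null (0.0491), and that in 57SCLC_allo against a 2-fold null (0.0115).

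A list of 13 other club and secretory genes gave 10 that could be tested. Of these, all 10 were called lower than Lung in both 46LCNEC groups, 9 in 57SCLC_cell and 8 in 57SCLC_allo, beside the 22.1% (46LCNEC_allo), 35% (46LCNEC_cell), 32.7% and 26.9% of all genes tested. Each of the 10 met the filter in the Lung samples alone. The acute-phase protein gene Hp, at 20131 to 28931 in Lung, gave 23.2 to 1109 in 46LCNEC_allo, and its call there was lost without any 1 Lung sample (adjusted p 0.0142 to 0.0157). The median log2 fold changes were -8.43 in 46LCNEC_allo and -7.77 in 46LCNEC_cell, against -0.14 and -0.23 over all genes tested, and -5.83 in 57SCLC_allo and -6.52 in 57SCLC_cell, against -0.09 and -0.12. The carbonyl reductase Cbr2, the most abundant of the list in Lung (76993, 86087 and 93539), gave 0, 6.63 and 11.5 in 57SCLC_cell, 139, 87.8 and 186 in 57SCLC_allo, 218 to 244 in 46LCNEC_cell and 320 to 1156 in 46LCNEC_allo. The exception was the aldehyde dehydrogenase Aldh1a7, at 972, 1306 and 1246 in Lung, which was called higher in 57SCLC_cell at 6375, 6537 and 8018 (log2 fold change 2.57, SE 0.14, adjusted p = 1.04e-06) and in 57SCLC_allo at 2710, 2701 and 2730 (adjusted p = 3.17e-05, not called against a 2-fold null). It was at or below 9.38 in all 46LCNEC samples. Its close relative Aldh1a1 was called lower in all 4 groups, and reads shared between these near-identical genes could be split by the counting.

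Of 6 goblet cell genes listed, 3 or fewer could be tested in each comparison with Lung. Spdef, the goblet cell factor, gave 36.3 to 44.9 normalized counts in Lung and overlapped with 46LCNEC_cell, at 35.65 to 49.97. The mucin Muc5ac gave 71.8, 41.9 and 12.9 in Lung, 30.02, 35.32 and 29.98 in 46LCNEC_cell, and 0 in all 46LCNEC_allo tumors. Clca1 was the 1 gene of the list called higher than Lung, in 46LCNEC_allo (197, 210 and 216, against 29.2, 6.98 and 0; adjusted p = 0.00831), and the call was lost without CT4, without any 1 of the 3 tumors (adjusted p 0.0204 to 0.0276 in these fits), in edgeR (0.0103), with a pseudocount of 0.1 (0.0337) and against a 2-fold null (0.0264). Clca1 has close paralogs, and reads shared with them could be split by the counting, which was not tested.

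Among the ciliated cell genes, Foxj1 and Rsph1 were read well above the floor in 57SCLC and Dynlrb2 was not. Foxj1 encodes the forkhead factor that switches on motile cilium genes (chromosome 11, 116221530 to 116226225). Lung gave 4686, 5706 and 3833 normalized counts. The 57SCLC_cell flasks gave 427, 384 and 261 and the 57SCLC_allo tumors 259, 265 and 179. The 46LCNEC_cell dishes gave 31.0, 8.83 and 25.4 and the 46LCNEC_allo tumors 47.7, 33.7 and 59.7. No group overlapped with Lung, and both 57SCLC groups lay above both 46LCNEC groups without overlap. The means were 7.54% of Lung in 57SCLC_cell, 4.94% in 57SCLC_allo, 0.992% in 46LCNEC_allo and 0.458% in 46LCNEC_cell, and Foxj1 was called lower than Lung in all 4.

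Rsph1, a protein of the radial spoke of the axoneme (chromosome 17, 31473993 to 31496378), kept the largest share of the 4. It gave 263, 343 and 291 normalized counts in Lung, 84.0, 93.5 and 102 in 57SCLC_cell and 103, 80.7 and 72.6 in 57SCLC_allo. It gave 4.69, 8.83 and 7.69 in 46LCNEC_cell and 26.5, 49.5 and 14.4 in 46LCNEC_allo. The means were 31.1% and 28.5% of Lung in the 57SCLC cells and tumors, and 2.36% and 10.1% in the 46LCNEC cells and tumors. It was called lower than Lung in each group, by -1.67 (SE 0.16) in 57SCLC_cell and -5.25 (SE 0.27) in 46LCNEC_cell on the log2 scale. Rsph1 shares 9.7% of its exon length with the opposite-strand gene Slc37a1.

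Tppp3, a tubulin polymerization protein (chromosome 8, 106193662 to 106198158), gave 10455, 14513 and 15720 normalized counts in Lung. The values were 150, 131 and 155 in 57SCLC_cell, 249, 154 and 222 in 57SCLC_allo, 70.4, 62.9 and 56.1 in 46LCNEC_cell and 289, 574 and 220 in 46LCNEC_allo. Its highest tumor mean, in 46LCNEC_allo, was 2.66% of Lung, and it was called lower in each group. It shares 12.4% of its exon length with the opposite-strand gene Gm64104.

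Dynlrb2, a dynein light chain of cilia (chromosome 8, 117231593 to 117242662), was the ciliated cell gene nearest to absence. It gave 415, 577 and 522 normalized counts in Lung. In the tumor and cell groups it had 3 reads in all of 57SCLC_cell, 2 in 46LCNEC_cell, 2 in 46LCNEC_allo and 0 in 57SCLC_allo. Lung was at least 70.3-fold higher than 57SCLC_allo and 910 times higher than 57SCLC_cell (95% interval of the counts 312 to 4415). The same 57SCLC flasks held 1920 reads of Foxj1 and 504 of Rsph1 in all, and 1 read of Dynlrb2 each.

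Calls of the regulators above these genes differed between the lines. Of 7 listed (Mcidas, Gmnc, Ccno, Rfx2, Rfx3, Myb and Trp73), 6 were called lower than Lung in both 46LCNEC groups and none higher, and the 1 not called was Rfx3. Of all genes tested, 22.1% were called lower and 13.4% higher in 46LCNEC_allo, and 35% and 20.6% in 46LCNEC_cell. The call of Myb in 46LCNEC_allo (adjusted p = 0.00943) was lost in edgeR (0.0201), with both other scalings, with a pseudocount of 0.1, against a 2-fold null and without any 1 Lung sample (0.0334 to 0.0384) or tumor 312 or 319. In 57SCLC_cell 3 were called higher than Lung (Mcidas, Rfx3 and Myb) and 2 lower (Gmnc and Rfx2), with Myb lost when all 15 samples were in 1 model (adjusted p = 0.0204) and Rfx3 lost against a 2-fold null (0.0723). In 57SCLC_allo 2 were called higher (Rfx3 and Myb) and 3 lower (Gmnc, Ccno and Rfx2), with Rfx3 (0.432) and Rfx2 (0.01203) lost against a 2-fold null. Of all genes tested, 21.1% were called higher and 32.7% lower in 57SCLC_cell, and 18.9% and 26.9% in 57SCLC_allo. Whether the counts of regulators differ from these shares was not tested.

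Mcidas, which starts centriole multiplication, gave 59.8, 45.9 and 71.4 normalized counts in Lung and 418, 411 and 301 in 57SCLC_cell, a log2 fold change of 2.66 (SE 0.22, adjusted p = 1.24e-05). The 57SCLC_allo tumors gave 35.9, 42.5 and 62.4, overlapping with Lung, and all 46LCNEC samples had 0 reads. From culture to tumor in 57SCLC, Mcidas fell by 3.001 on the log2 scale (SE 0.24, adjusted p = 2.97e-05). Ccno, which acts with it in centriole multiplication, gave 277, 329 and 279 in Lung, 386, 401 and 369 in 57SCLC_cell and 45.5, 28.3 and 48.8 in 57SCLC_allo, and fell by 3.24 on the log2 scale between culture and tumor (SE 0.23, adjusted p = 1.23e-05). Mcidas and Ccno were the 2 regulators called between the 57SCLC groups, while Foxj1 was not (log2 fold change -0.60, SE 0.23, adjusted p = 0.0686). The 57SCLC tumors also hold host cells, with a summed endothelial marker level of 2568 to 3610 against 35.6 to 44.8 in the flasks, and their part in these falls was not tested.

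Gmnc, the geminin-like factor that acts before Mcidas, gave 105, 82.8 and 51.5 normalized counts in Lung and had 0 reads in all 12 tumor and cell samples. Trp73, a p53 relative required for multiciliated cells, gave 654 to 679 in Lung, 882 to 994 in 57SCLC_cell and 989 to 1317 in 57SCLC_allo, but at most 12.2 in any 46LCNEC sample. It was above every Lung sample in both 57SCLC groups and did not reach the 2-fold threshold (log2 fold changes 0.49 and 0.77). Myb, which is active early in multiciliated cells and in cycling cells, gave 357, 458 and 373 in Lung, 1180 to 1250 in 57SCLC_cell and 1460 to 1658 in 57SCLC_allo. The 57SCLC samples thus carried Mcidas, Ccno, Trp73, Myb and Foxj1 RNA with no read of Gmnc. Gmnc and Ccno were singled out after their values were seen, beyond the genes that the naming rule gave.

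RNA of most axoneme genes was low in both lines. Of 28 genes of dynein arms, radial spokes, rulers, the central pair, tektins and other cilium parts, 26 were called lower than Lung in 46LCNEC_allo, 25 in 57SCLC_allo, 26 in 46LCNEC_cell and 26 in 57SCLC_cell, and none was called higher. The shares of all genes tested called lower were 22.1%, 26.9%, 35% and 32.7%, and the 28 genes passed the filter through Lung, where they are high. Their median log2 fold changes lay between -6.79 in 46LCNEC_cell and -5.16 in 57SCLC_allo, against medians of -0.23 and -0.09 over all genes tested. The median gene stood at 0.876% of Lung in 57SCLC_cell, 3.06% in 57SCLC_allo, 0.716% in 46LCNEC_cell and 1.14% in 46LCNEC_allo. The highest gene stood at 78.7%, 60.4%, 74.9% and 64.3% in the same order. Under 10% of Lung were 20 of the 28 in each 57SCLC group, 23 in 46LCNEC_cell and 24 in 46LCNEC_allo. The genes not called were Rsph9 in every group, Ccdc39 in every group but 57SCLC_cell, and Cfap52 in both 57SCLC groups. Most of these genes were thus low in both lines, while several regulators were low in 46LCNEC only. The difference between the lists was not tested.

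Single genes showed how uneven this was. The spoke head gene Rsph4a gave 792, 1089 and 780 normalized counts in Lung and at most 4.79 in every other sample. Hydin, of the central pair, gave 694 to 861 in Lung and at most 8.85 elsewhere. The dynein heavy chain Dnah5 gave 979 to 1559 in Lung, 48.5 to 79.2 in 57SCLC_cell, 46.5 to 59.8 in 57SCLC_allo and at most 2.21 in 46LCNEC. Dnah9, another heavy chain, gave 116 to 157 in 57SCLC_cell, 158 to 234 in 57SCLC_allo, 53.8 to 64.7 in 46LCNEC_cell and 20.0 to 31.0 in 46LCNEC_allo, against 827 to 1064 in Lung. Ccdc40, a ruler protein, kept 288 to 346 in 57SCLC_cell and 229 to 278 in 57SCLC_allo of 921 to 1290 in Lung, and 27.4 to 49.7 in 46LCNEC. Dnai1, an intermediate chain, gave 540 to 781 in Lung and at most 28.4 elsewhere. Lrrc23 and Cdhr3, the highest in Lung of the 15 tektins and other cilium genes, were at most 1.39% and 0.42% of Lung in any tumor or cell group. Tmem212, next in that list, gave 93.8 to 144 in 46LCNEC_cell and at most 2.18 in 57SCLC_cell, but 73.0 to 109 in 46LCNEC_allo and 45.3 to 69.4 in 57SCLC_allo, against 1467 to 1997 in Lung.

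**Figure D3:**
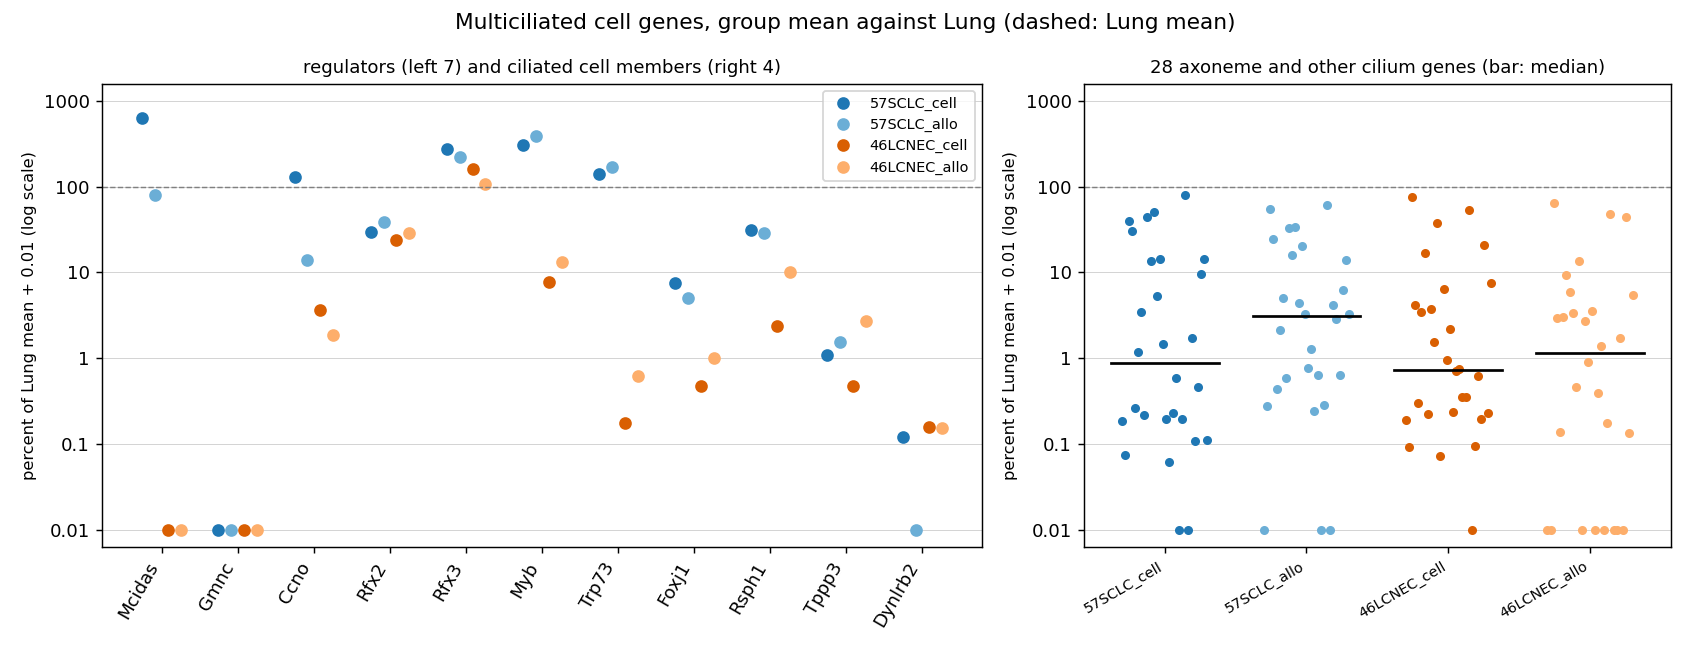
Group mean as percent of the Lung mean + 0.01, on a log scale (y), for 7 regulators and 4 ciliated cell genes (left, x: gene) and for 28 axoneme and other cilium genes (right, x: group, 1 point per gene, bar: median); colours mark the 4 tumor and cell groups and the dashed line Lung. Mcidas, Ccno, Rfx3, Myb and Trp73 lie above the line in 57SCLC_cell, Gmnc lies at the bottom in all 4 groups, and the medians of the axoneme genes lie between 0.716% and 3.06%.

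The lines were then compared with each other. In culture, 6 of the 10 genes had enough reads to be tested, and Scgb1a1, Scgb3a2, Cyp2f2 and Dynlrb2 did not. Foxj1, Rsph1 and Tppp3 were called higher in 57SCLC_cell than in 46LCNEC_cell, 3 of 6, where 23.9% of all genes tested were called higher. Together with Cldn10 they were the 4 of 6 with every flask above every dish, against 40.3% of all genes tested. Rsph1 passed the filter only through the 57SCLC flasks, where it is high, and had to differ, so it adds nothing to either count. The log2 differences were 4.12 for Foxj1 (SE 0.44, adjusted p = 5.39e-05), 3.58 for Rsph1 (SE 0.26, adjusted p = 5.25e-06) and 1.19 for Tppp3 (SE 0.17, adjusted p = 0.00026). Against a 2-fold null the call of Tppp3 was lost (treat, adjusted p = 0.334). Cldn10 was higher in every 57SCLC flask than in any 46LCNEC dish but not called (log2 difference 1.18, SE 0.36, adjusted p = 0.0177), and DESeq2, scaling by total reads, and all 15 samples in 1 model called it. Muc5b overlapped between the lines (log2 difference 0.24, SE 0.29), and without flask C its difference was -0.05.

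Between the tumors, 5 genes were tested and Cldn10, Muc5b and Foxj1 were called higher in 57SCLC_allo than in 46LCNEC_allo, 3 of 5, where 16.1% of all genes tested were called higher. With Rsph1 they were the 4 of 5 with every 57SCLC tumor above every 46LCNEC tumor, against 33.6% of all genes tested. Muc5b passed the filter only through the 57SCLC tumors, where it is high, and had to differ, so its call adds nothing to the count. It differed by 5.52 on the log2 scale (SE 0.72, adjusted p = 0.000768), with 108 to 183 normalized counts against 0 to 5.53. Cldn10 differed by 2.32 (SE 0.30, adjusted p = 0.000778) and Foxj1 by 2.31 (SE 0.31, adjusted p = 0.000895). Rsph1 was above in all 3 57SCLC tumors without a call (1.62, SE 0.47, adjusted p = 0.0243). Tppp3 overlapped and lay lower in the mean, by -0.70 (SE 0.39, adjusted p = 0.167).

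Growth as a tumor went with different changes in the lines. In 46LCNEC, Tppp3 rose by 2.38 on the log2 scale from dish to tumor (SE 0.35, adjusted p = 0.00138) and Muc5b fell by 4.17 (SE 0.69, adjusted p = 0.00225), 2 of 5 genes tested, where 22.8% of all genes tested were called in either direction. Muc5b was tested here only through the dishes, where it is high, and its call was lost without any 1 dish (adjusted p 0.0125 to 0.0157). Rsph1 (1.82, adjusted p = 0.0208), Foxj1 (adjusted p = 0.0781) and Cldn10 (-1.002, adjusted p = 0.0188) were not called. Tumors lay above all dishes for 3 of 5 genes (32.5% of all genes tested) and below them for 2 of 5 (31.5%). Rsph1 passed the filter only through the tumors and Muc5b only through the dishes, where each is high. Both had to differ, so they add nothing to the counts here. In 57SCLC limma called none of 5 genes, where 16.6% of all genes tested were called. At an unadjusted p under 0.05 there were 3 (Muc5b, Foxj1 and Tppp3), edgeR called none, and DESeq2 called 1, Muc5b, the 1 gene of 5 higher in all 3 tumors than in all 3 flasks (29.5% of all genes tested; limma log2 fold change 1.12, SE 0.31, adjusted p = 0.0205). Without flask C limma called Muc5b as well (1.40, adjusted p = 0.00388). The 57SCLC_allo mean of Cldn10 differed from that of 57SCLC_cell by 0.13 (SE 0.37), a sign that turned in edgeR and DESeq2.

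The difference between these changes was tested with an interaction term over the 12 tumor and cell samples. It was called for 3 of 7 genes tested, Cyp2f2, Muc5b and Tppp3, where 17.5% of all genes tested were called. The change of Muc5b from culture to tumor was 5.28 higher in 57SCLC than in 46LCNEC (SE 0.81, adjusted p = 0.000387), and that of Tppp3 was lower, by -1.89 (SE 0.44, adjusted p = 0.00538). Rsph1 (-1.95, adjusted p = 0.0173) and Foxj1 (-1.81, adjusted p = 0.0285) did not pass. Fibroblast, endothelial and macrophage markers also moved from culture to tumor in both lines. The summed fibroblast level was 67853 to 78009 in 46LCNEC_cell and 289456 to 664490 in 46LCNEC_allo. It was 22.4 to 27.8 in 57SCLC_cell, 30353 to 47803 in 57SCLC_allo and 17675 to 22052 in Lung. The cultured 46LCNEC dishes were thus already above Lung, so this sum does not measure host cells in that line. The part of host cells in the changes of Tppp3, Cyp2f2 and Muc5b was not tested.

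**Figure D4:**
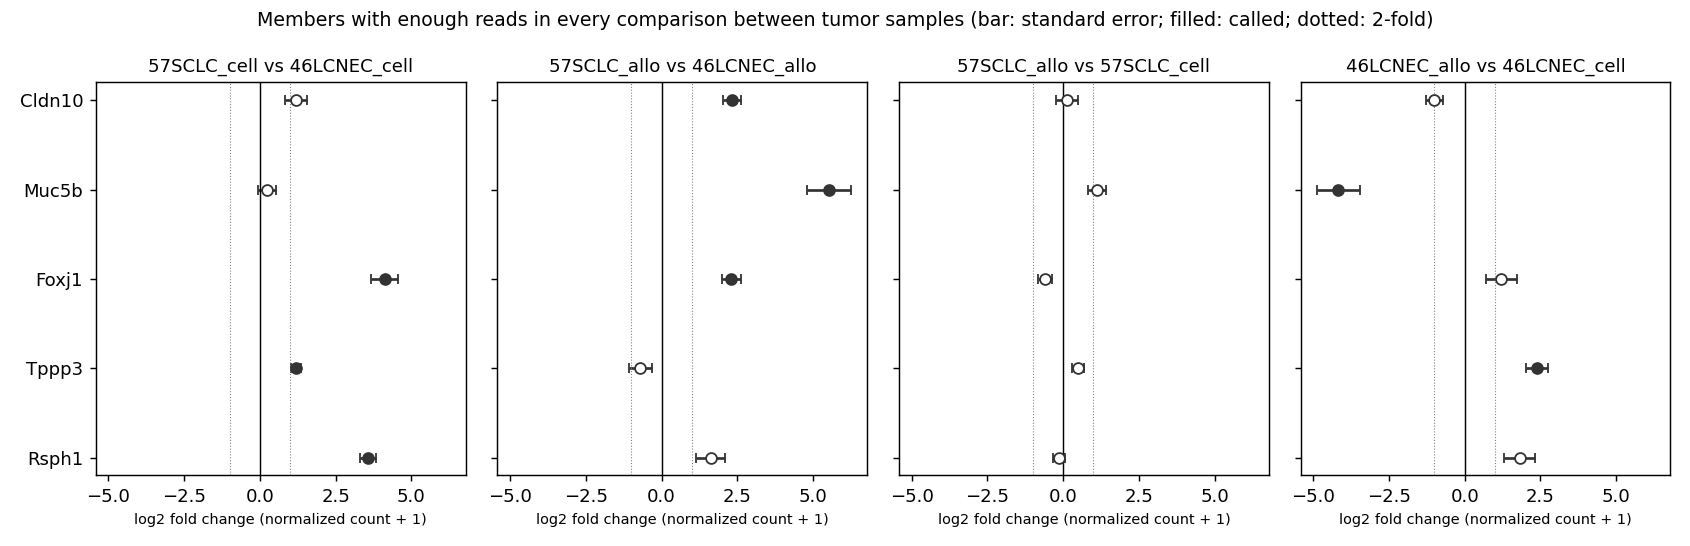
Log2 fold change on the scale of normalized count + 1 (x, bars: standard error) of the 5 genes with enough reads in all 4 comparisons between tumor and cell groups (y); filled points were called, and dotted lines mark a 2-fold change. Muc5b lies at 5.52 between the tumors and at -4.17 from dish to tumor in 46LCNEC, and no point is filled between 57SCLC tumors and flasks, where the sign of Cldn10 turned in edgeR and DESeq2.

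The genes with the most similar pattern over the 15 samples were taken by Pearson correlation among 19626 genes. The points are 5 groups that share libraries, so r is a description and mainly reflects Lung against the rest. For Scgb1a1 they were Olfr750 (r = 0.992), Ccdc113 (r = 0.992) and Lrriq1 (r = 0.991), with 114, 315 and 218 mean normalized counts in Lung and at most 0.730 in any other group. For Foxj1 they were Odf3b, Gm20457 and Enpp4, each with r = 0.981. Odf3b gave 862 in Lung, 38.1 in 57SCLC_cell, 15.5 in 57SCLC_allo, 4.13 in 46LCNEC_allo and 0 in 46LCNEC_cell, the same order of line as Foxj1.

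Per kilobase of exon, the order of the 10 genes in Lung was Scgb1a1 (384792), Cyp2f2 (10842), Scgb3a2 (7954), Tppp3 (3202), Foxj1 (1514), Scgb3a1 (1163), Dynlrb2 (440), Rsph1 (195), Cldn10 (162) and Muc5b (139). In 57SCLC_cell it was led by Foxj1 (114), Rsph1 (60.6) and Cldn10 (47.3), with Scgb1a1 at 23.6. In 46LCNEC_allo it was led by Tppp3 (85.2), Rsph1 (19.6) and Foxj1 (15.02). Lung levels of Scgb3a1 and Muc5b are means of 3 samples that spread 136-fold and 59.0-fold, so their place in this order is not settled by these samples.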

How the data were processed

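The authors selected poly-A RNA, sequenced it as read pairs, aligned it to GRCm39 with Rbowtie2, counted reads with featureCounts on GENCODE release 27, and deposited a signal value per gene, the count divided by the DESeq2 size factor of the sample. Dividing each column by its smallest step gave whole reads for all values (tolerance 0.01). Depth was 9480244 to 44876572 reads, and floors and intervals cover counting error only. The planned main test was limma 3.58.1 in R 4.3.3 with a mean-variance trend on log2(normalized count + 1), on the 6 samples compared, with genes of at least 10 normalized counts in at least 3 samples (in at least 2 where 1 sample was left out, so that those fits changed the sample and the filter together). Fold changes on this scale understate low genes. edgeR 4.0.16 and DESeq2 1.42.0 were run on the recovered reads as alternatives, and the code was tested on simulated data. Replicates were separate flasks, dishes, tumors or lungs, and all pairs differed by more than counting noise. Coordinates and exon overlaps came from GENCODE release 39 of the same build. The members, gene lists and thresholds were chosen with earlier results of these data known. List genes were named where they were among the 3 highest in Lung of their list or called higher than Lung. Gmnc, Ccno, Bpifa1, Bpifb1, Reg3g, Krt5, Rsph9, Ccdc39 and Cfap52 were also named after their values were seen. Summaries used Python 3.11.15, pandas 2.3.3 and scipy 1.17.1, and figures matplotlib 3.10.9. One allele of the strain is not reported here.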

Additional observations from a re-analysis of the deposited data

Results flagged for a closer look

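The change from culture to allograft tumor was called different between the lines for 3 of the 7 genes tested, by an interaction term in limma over 12 samples. Of all genes tested, 17.5% were called. For Muc5b the log2 change was 5.28 higher in 57SCLC. Its 3 tumors lay above all flasks in 57SCLC (29.5% of all genes tested) and below all dishes in 46LCNEC (31.5%). In 46LCNEC it passed the filter only through the dishes, where it is high, and had to differ. For Tppp3 the change differed by -1.89, with 3 of 3 tumors above all dishes in 46LCNEC (32.5% of all genes tested) and an overlap in 57SCLC. The call of Tppp3 was lost without any 1 of 7 samples (adjusted p 0.011 to 0.0164). For Cyp2f2 the change differed by -5.32, a size set in part by the pseudocount because 46LCNEC_cell had 0 reads. With 1 line of each kind, the line, its tumor type and the promoter of its Cre cannot be told apart.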

How the results depend on the processing

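Counts of called genes stayed within 1.5 times under most alternatives. Against Lung, DESeq2 called all 10 genes in each tumor and cell group, and edgeR called 9 in both _allo groups and 10 in both _cell groups. Exceptions were 57SCLC_allo against 46LCNEC_allo (3, and 1 with limma's treat test against 2-fold), 46LCNEC_allo against 46LCNEC_cell (2, against 1 with a pseudocount of 0.1, 4 at an adjusted p of 0.05 and 0 with treat), 57SCLC_allo against 57SCLC_cell (0, against 1 with DESeq2 and 1 at 0.05) and the interaction (3, against 5 at 0.05). Leaving out 1 sample, with the filter then asking for 2 samples in place of 3, gave 8 to 10 genes in 46LCNEC_allo, 57SCLC_allo and 46LCNEC_cell against Lung, 7 to 9 in 57SCLC_cell against Lung, 3 to 4 between lines in cells and in tumors, 2 to 3 in 46LCNEC_allo against its cells, 0 to 1 in 57SCLC_allo against its cells (1 without flask C or tumor 275) and 2 to 4 in the interaction. Signs turned only in uncalled values: Cldn10 in 57SCLC_allo against 57SCLC_cell (0.13, against -0.015 in edgeR, -0.019 in DESeq2 and -0.12 to 0.58 with 1 sample left out), Muc5b between cells (-0.052 to 0.41 with 1 left out), Scgb3a1 in the interaction (0.16 with a pseudocount of 0.1, -1.58 to 0.073 with 1 left out), and in 46LCNEC_cell against Lung Muc5ac (0.022 with TMM, -0.77 to 0.42 with 1 left out) and Spdef (-0.0079 to 0.24 with 1 left out). The letters A, B and C of the cells did not pair them (correlations 0.0916, -0.0837 and -0.00619), and with the replicate block 3 genes were called, as without it. Over all genes, treat took calls from 6412 to 3451 in 46LCNEC_allo against Lung, from 5312 to 2861 between tumors, from 3738 to 1414 in 46LCNEC_allo against its cells (2428 without dish C) and from 2842 to 1700 in 57SCLC_allo against its cells. Scaling by total reads moved the all-gene median between tumors from 0.015 to 0.28 and the share of higher calls between tumors from 53.1% to 64.2%. Scgb3a2 and Dynlrb2 had 3 reads or fewer in all in each tumor and cell group, so differences between those groups were not detectable at this depth.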
